A study of Mus musculus with 16 samples.

Results

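Of the 16 one-colour expression arrays in the study, the 8 that carried RNA from primary astrocyte cultures were compared by the column of the slide on which each array lay, with 4 arrays in column 4 and 4 in column 3. The deposited value table, which holds 1 column of scaled values per sample, places the 4 arrays of column 4 under astrocytes given 1 nM recombinant secreted Klotho for 24 h. It places the 4 arrays of column 3 under astrocytes given phosphate-buffered saline, the vehicle, for 24 h. The sample labels of the scanner files assign the same arrays differently: in each column 2 arrays are labelled Klotho and 2 control, because all arrays of slide 3 are labelled Klotho and all arrays of slide 2 control. Of the 8 astrocyte columns in the value table, 2 hold the array of their own sample and 6 hold that of another sample, in 4 cases one of the other treatment. The files do not settle which assignment is right, so the groups are named here by slide column alone.

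The labels give all 8 cultures the C57BL/6 strain and name no difference between them other than Klotho or vehicle. The growth protocol takes astrocytes from cortices of pups of postnatal day 0 to 5, while the astrocyte labels also carry embryonic day 16. Shaking for 15 h is said there to leave more than 98% astrocytes. Whether the arrays of a column came from separate cultures is not stated, so a p-value here reflects only the spread between these samples, and that spread may be technical. The other 8 arrays held neuron cultures and lay on slide 1.

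Klotho is a membrane protein that is shed into blood and cerebrospinal fluid and serves FGF receptors as the co-receptor of the hormone FGF23, and their signal runs through the kinase ERK. Astrocytes supply neurons with lactate and cholesterol, clear glutamate and potassium from the synapse, and answer injury and cytokines by switching on inflammatory genes through the transcription factor NF-kappaB. A separate early wave, the activity-regulated or immediate early genes, follows calcium and ERK signals within minutes to hours, and the genes of sterol and fatty acid synthesis are held together by SREBP transcription factors.

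The sequences of 4 inflammatory promoters are given first, because NF-kappaB target genes showed the widest differences between the columns among the gene lists examined. Each run is the 150 bases directly before the annotated gene start, 5′ to 3′ on the strand of the gene, from RefSeq on build GRCm38.p6, and capitals mark the match to the NF-kappaB motif.
Cxcl1: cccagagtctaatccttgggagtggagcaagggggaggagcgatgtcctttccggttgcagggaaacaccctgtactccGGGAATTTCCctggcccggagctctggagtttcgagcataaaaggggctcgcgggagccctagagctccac
Cxcl2: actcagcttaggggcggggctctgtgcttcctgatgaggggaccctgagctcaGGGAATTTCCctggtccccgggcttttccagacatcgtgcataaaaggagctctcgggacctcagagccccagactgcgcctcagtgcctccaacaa
Il6: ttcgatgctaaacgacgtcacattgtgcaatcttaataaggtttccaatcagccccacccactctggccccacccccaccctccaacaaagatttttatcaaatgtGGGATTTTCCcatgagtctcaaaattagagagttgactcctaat
Nfkbia: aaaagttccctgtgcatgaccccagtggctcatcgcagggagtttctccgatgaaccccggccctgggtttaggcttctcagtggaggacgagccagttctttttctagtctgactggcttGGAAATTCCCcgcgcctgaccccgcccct
The windows lie at chr5:90891095-90891244 (plus strand, Cxcl1), chr5:90903749-90903898 (plus strand, Cxcl2), chr5:30012964-30013113 (plus strand, Il6) and chr12:55492648-55492797 (minus strand, Nfkbia). Cxcl1 and Cxcl2 encode neutrophil-attracting chemokines, Il6 a cytokine, and Nfkbia the inhibitor that holds NF-kappaB in the cytoplasm. The motif searched was GGGA, any base, then TTTCC, without gaps and on both strands, in windows from 250 bases before to 50 after each start. It was present in 6 of the 22 NF-kappaB list genes with a promoter sequence (27.3%), against 0.466% of all 27025 genes, and the 4 shown are those with the match inside the printed stretch. It was in none of the 31 activity-regulated genes with a promoter sequence, 3 of which (Btg2, Dusp1 and Maff) held the cyclic AMP response element TGACGTCA, against 2.03% of all genes. No gene of either list held both motifs. The NF-kappaB list was made of genes held to be targets of that factor, so its share with the motif partly follows from how the list was made. A match describes the sequence and not a bound site.

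Levels are log2 processed signal relative to the 75th percentile of the same array, so a level of 0 is that percentile, and a difference is column 4 minus column 3 on the log2 scale. Because each slide and each row held 1 array in each column, the 8 arrays form 4 position pairs of neighbouring arrays: slide 2 row 1, slide 2 row 2, slide 3 row 1 and slide 3 row 2. Values for 4 arrays or 4 pairs are given in that order throughout. Slide and row were terms of the fit, which tested 23608 genes and other transcripts, 15334 of them with a gene symbol.

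With limma and Benjamini-Hochberg adjustment over all 23608, 0 genes (0%) differed between column 4 and column 3 at an adjusted p below 0.05, and the smallest adjusted p was 0.553. Before adjustment, p was below 0.05 for 927 genes higher in column 4 (3.93%) and for 1188 lower in column 4 (5.03%). With the arrays centred on their median in place of the 75th percentile, these counts were 996 higher and 551 lower. Leaving out single arrays moved them to between 382 and 1586 higher and between 438 and 1883 lower. Column 4 lay above column 3 in all 4 pairs for 2188 genes (9.27%) and below it in all 4 pairs for 3419 (14.5%). All 4 column 4 values exceeded all 4 column 3 values for 132 genes (0.559%), and all 4 were below them for 260 genes (1.1%). The median difference over all genes was -0.05, with a median standard error (SE) of 0.20.

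Slide column was a minor source of the spread between these arrays. Of the summed squares over all genes, column took 9.95%, slide 13.2%, array row 51.6%, and the interaction of slide with row 12.1%. In the same fit, 11068 genes (46.9%) differed between row 2 and row 1 at an adjusted p below 0.05, 4792 higher and 6276 lower in row 2. The median absolute column difference of a gene was 0.09, 0.23, 0.46 and 0.25 in the 4 pairs, so the neighbours on slide 2 row 1 were almost alike and those on slide 3 row 1 the furthest apart. In the 12 pairs of neuron arrays that share a row and a treatment, the same measure ranged from 0.09 to 0.41 with a median of 0.26. Differences above 1 were found for 110, 416, 2438 and 1027 genes and differences below -1 for 127, 514, 1061 and 556. Across genes, which are not independent, the differences of both slide 3 pairs correlated with r = 0.56, those of slide 2 row 2 and slide 3 row 2 with r = 0.32, and the other 4 combinations with r between 0.07 and 0.16.

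One array stood apart in brightness. The 75th percentile of log2 signal was 10.3, 10.05, 9.88 and 10.6 in column 4 and 10.2, 10.3, 9.31 and 10.3 in column 3, where the array on slide 3 row 1 was the dimmest of the 8. Spots well above background made up 64.8%, 66.8%, 62.0% and 67.3% in column 4, against 61.9%, 63.7%, 57.5% and 61.6% in column 3. The share was higher in column 4 in 4 of 4 pairs, although the groups overlapped. The means were 65.2% ± 2.39 in column 4 and 61.2% ± 2.59 in column 3 (SD, n = 4 each; exact permutation test over 70 arrangements, two-sided, p = 0.057, adjusted p = 0.371 over 13 array measures). This and the other exact permutation tests below did not use the position pairs, so their p-values also reflect the spread between slides and rows. The part of this brightness in the gene differences was not tested, and for several lists the counts are given with and without the dim array.

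**Figure D1:**
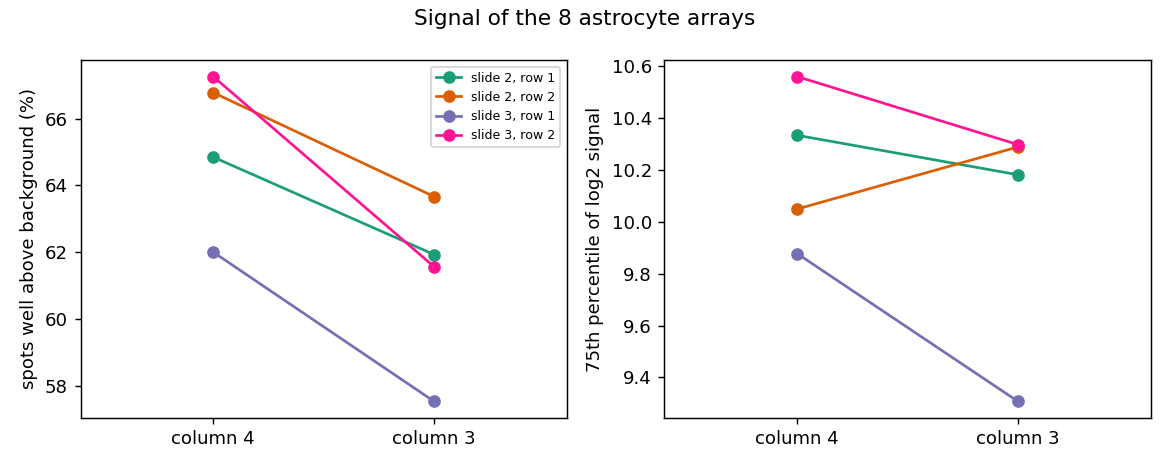
Share of spots well above background (left, percent) and 75th percentile of log2 signal (right) in the 8 astrocyte arrays, column 4 left of column 3, with a line for each position pair. The share lies higher in column 4 in all 4 pairs, and the column 3 array of slide 3 row 1 lies lowest in both panels.

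The genes with the smallest p before adjustment were spread over many functions, and all 20 had an adjusted p of 0.553. Batf, a basic leucine zipper partner of Jun proteins, had levels of -3.29, -3.23, -2.20 and -2.98 in column 4, against -3.70, -4.75, -3.67 and -4.58 in column 3. The groups did not overlap, and the difference was 1.25 (SE 0.23). Ets1, a transcription factor of the ETS family that ERK can activate, had levels of -0.75, -1.34, 1.01 and 0.40 in column 4, against -1.22, -2.34, -1.01 and -1.73 in column 3, a difference of 1.41 (SE 0.29). Ets1 was higher in column 4 in every pair, by 2.08 on slide 3 and 0.73 on slide 2. The others on the higher side were Tas1r2, a sweet taste receptor subunit (1.88), Rapgef5, an activator of Rap GTPases (0.94), the importin Kpna7 (0.83), the lipid flippase Atp8b3 (1.01), the organic anion transporter Slco4a1 (0.91) and Gm3264 (1.07). In column 3, Atp8b3 was above background on 1 of 4 arrays and Tas1r2 and Kpna7 on 3 of 4. The sizes of their differences therefore rest partly on signal near background. S100a8, a calcium-binding protein of myeloid cells, and the spermatid gene Spem1 were above background on all 4 arrays of column 4 and on 0 of column 3, so they have only a bound. It was at least 1.48-fold higher for S100a8 and at least 1.53-fold higher for Spem1 in column 4. Among genes with a symbol and such a bound, the widest were Tbx3, a T-box transcription factor (at least 2.22-fold), Fam83e and the histidine ammonia-lyase gene Hal (at least 1.83-fold each), all brighter in column 4 and all with an adjusted p of 0.553. The widest bound of all, in a transcript without a symbol, was brighter in column 3 (at least 3.35-fold). The direction of a bound follows from the background flags by which the gene is picked, so it adds nothing to the fit. The share of spots well above background was itself higher in column 4. For the bound, the mean of the brighter column was set against a mean over the arrays of the other column. That mean took the higher of the probe's own signal and the lowest signal well above background.

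On the lower side, Pabpc5, which encodes a cytoplasmic poly(A)-binding protein, had the smallest p of all genes (0.000199). Its levels were -4.08, -4.66, -4.88 and -5.12 in column 4, against -3.36, -3.52, -3.72 and -3.96 in column 3, a difference of -1.05 (SE 0.15). The groups of Pabpc5 did not overlap. Igsf11, an adhesion molecule of the immunoglobulin superfamily, had levels of 2.33, 1.66, 2.46 and 1.62 in column 4, against 2.88, 2.42, 3.31 and 2.56 in column 3. It was lower in column 4 in every pair, by 0.55 to 0.94, although the groups overlapped. Dio3, which inactivates thyroid hormone, was at -0.95 (SE 0.20), Rax, a homeobox gene of the eye field and hypothalamus, at -1.21, Npy6r, a neuropeptide Y receptor, at -1.20, and Thsd4, which encodes a matrix protein, at -1.46. Ttc39d (-1.14), the meiotic regulator Fbxo43 (-1.37), Gm4925 (-0.94) and Gm5124 (-0.70) completed the group. In column 4, Fbxo43 was above background on 1 of 4 arrays and Ttc39d and Thsd4 on 2 of 4. The sizes of their differences therefore rest partly on signal near background.

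The NF-kappaB and inflammation list showed the widest differences. Of its 32 genes 28 were tested, all 28 were higher in column 4 in the fit, and the median difference was 1.45, against -0.05 over all genes. A gene could pass the background filter through 1 column alone, as Il1b did through column 4. The direction of such members is therefore not independent of the filter, here and in the other lists. No member passed adjustment, and 19 had an unadjusted p below 0.05, against 3.93% of all genes on that side. The list medians in the 4 pairs were 0.10, 0.33, 2.23 and 3.93, so the difference lay mostly on slide 3. Without the dim column 3 array of slide 3 row 1, the count of 19 was 3, and without each of the other slide 3 arrays it was 4 (column 4, row 1), 8 (column 4, row 2) and 9 (column 3, row 2), while the median stayed between 0.97 and 1.92 whichever array was left out. Without slide and row as terms the count was 0 of 28.

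Il1b, the gene of the cytokine interleukin-1 beta, had levels of -2.61, -3.56, 3.61 and 2.21 in column 4, against -3.00, -6.25, 0.67 and -3.85 in column 3, where it was above background on 3 of 4 arrays. Column 4 was higher in every pair, and the groups overlapped, since the slide 2 values of column 4 lay below the slide 3 row 1 value of column 3. The difference was 3.02 (SE 0.77, adjusted p = 0.553). Bcl3, a nuclear partner of NF-kappaB p50 and p52, had levels of 1.98, 0.78, 4.49 and 3.30 in column 4, against 1.90, -0.16, 1.85 and 0.15 in column 3, a difference of 1.71 (SE 0.48). For this gene the neighbours on slide 2 row 1 were nearly equal, and those on slide 3 differed by 2.65 and 3.15. Lif, a cytokine of the interleukin-6 family, differed by 2.32 (SE 0.70) and Relb, an NF-kappaB subunit, by 1.06 (SE 0.32). The genes whose promoters are printed above, named for the motif they carry, followed the same layout. Il6 had levels of -4.54, -4.76, 5.40 and 5.60 in column 4, against -4.28, -6.34, 2.75 and -2.17 in column 3, a difference of 2.94 (SE 1.12). The Il6 level of -6.34 lay below the Il1b level of -6.25 on the same array, so the size of the Il6 difference rests partly on signal near background. Cxcl1 had levels of -0.96, -2.87, 7.13 and 7.03 in column 4, against -0.90, -3.75, 4.82 and 0.10 in column 3, a difference of 2.51 (SE 1.00). Both genes were higher on slide 3 than on slide 2 in either column, and both were slightly lower in column 4 in the pair of slide 2 row 1. Cxcl2 differed by 3.05 (SE 1.03) and Nfkbia by 1.13 (SE 0.42), and Nfkbia was higher in column 4 in 4 of 4 pairs.

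The microglia markers were read beside this list, because microglia are the usual immune cells left in astrocyte cultures. All 20 were above background on all 8 arrays. Their median difference was 0.01, 11 were higher and 9 lower in column 4, and their summed log2 level ranged from 8.51 to 9.10 in column 4 and from 8.45 to 8.82 in column 3 (exact permutation p = 0.914). In the pairs their medians were 0.15, 0.49, -0.45 and 0.02. Cd14, a receptor for lipopolysaccharide that is itself inducible, was the microglia marker with the smallest p, with levels of 3.14, 2.28, 4.58 and 3.89 in column 4, against 2.99, 1.40, 3.03 and 1.81 in column 3 and a difference of 1.16 (SE 0.30). In bulk RNA, fewer cells of a type and less RNA per cell cannot be told apart.

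**Figure D2:**
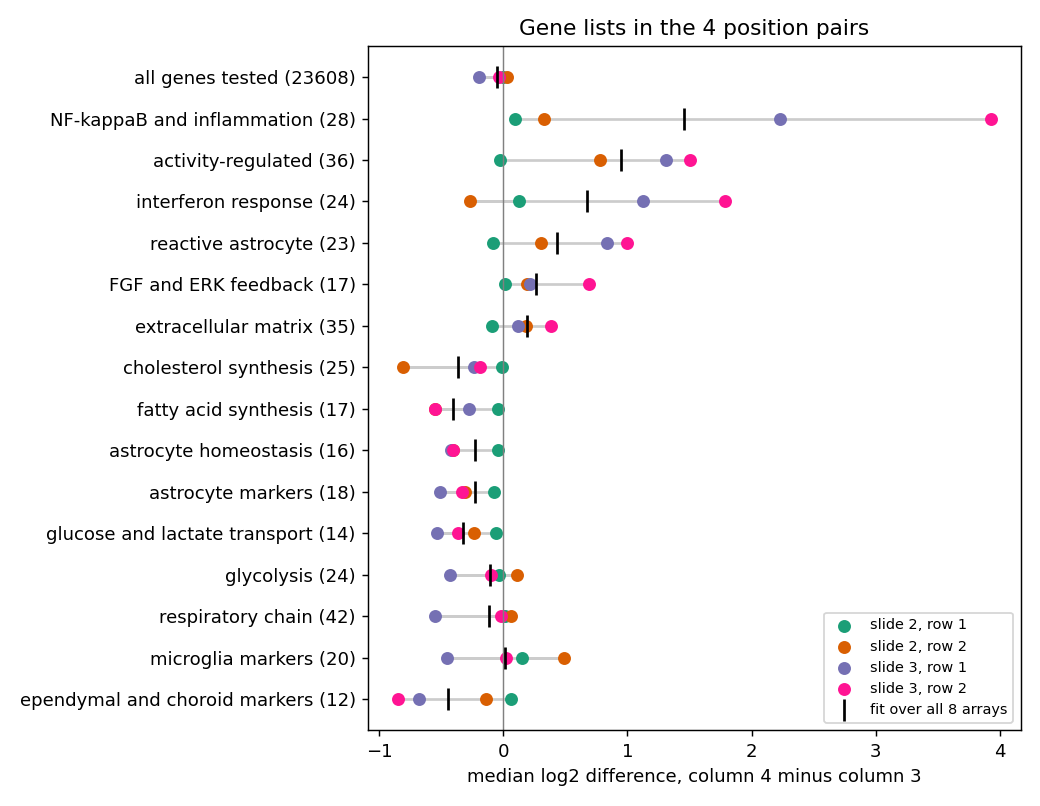
Median log2 difference, column 4 minus column 3, of 16 gene lists, with the number of genes tested in parentheses; points are the 4 position pairs and black bars the fit over all 8 arrays. The NF-kappaB, activity-regulated and interferon lists lie furthest right in both slide 3 pairs, and the lists of lipid synthesis and astrocyte homeostasis lie left of 0 in the fit.

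Interferon response genes had positive differences mainly on slide 3. The median of the 24 tested genes (of 28) was 0.67, with pair medians of 0.13, -0.27, 1.13 and 1.78; 23 were positive, none passed adjustment, and 3 had an unadjusted p below 0.05, against 3.93% of all genes on that side. Parp14, an interferon-inducible ADP-ribosyltransferase, had levels of 3.70, 3.35, 6.14 and 5.51 in column 4, against 3.62, 3.37, 4.03 and 3.61 in column 3, a difference of 1.02 (SE 0.39). Its columns were alike on slide 2 and apart on slide 3. The antiviral genes Ifit2 and Oas1a differed by 1.02 (SE 0.35) and 0.94 (SE 0.33), and the GTPase gene Gbp2 by 1.28 (SE 0.56). The count of 3 was 0 without any single array of slide 3, 17 without the column 4 array of slide 2 row 2, 11 without the column 3 array beside it and 5 without the column 4 array of slide 2 row 1. It was 0 without slide and row as terms, 8 with median centring and 9 with normexp background correction. The median was 0.34 without the column 4 and 0.44 without the column 3 array of slide 3 row 2, and between 0.47 and 0.90 without any other array.

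Reactive astrocyte genes, which mark the response of these cells to injury, had a median of 0.44 over 23 tested genes, with 6 higher and 1 lower at an unadjusted p below 0.05, against 3.93% and 5.03% of all genes. Psmb8, an immunoproteasome subunit, differed by 1.02 (SE 0.34), the transglutaminase gene Tgm1 by 1.03 (SE 0.32), the cytokine gene Clcf1 by 0.95 (SE 0.33) and the membrane protein gene Emp1 by -0.60 (SE 0.21). The count of 6 higher genes was 1 without either column 3 array of slide 3, 2 without either column 4 array of slide 3, and 10 without the column 4 array of slide 2 row 2. Without slide and row as terms it was 3. The median was 0.26 without the column 4 array of slide 3 row 2, and 0.72 and 0.81 without the column 4 array of slide 2 row 2 and the column 3 array of slide 2 row 1. Among 35 matrix genes the median was 0.19, but it was 0.0096 without the column 3 array of slide 3 row 2, 0.03 without the column 4 array of slide 2 row 2 or of slide 3 row 1, 0.11 and 0.09 without the column 3 arrays of slide 2, and 0.03 with normexp. The proteoglycan gene Vcan (0.87, SE 0.29), with no overlap between the groups, and tenascin-C, Tnc (1.50, SE 0.59), were higher in column 4, and the small proteoglycan gene Dcn was lower in it (-0.49, SE 0.17). Of the matrix genes 4 were higher and 3 lower at an unadjusted p below 0.05, against 3.93% and 5.03% of all genes. These counts were 0 and 0 without the dim column 3 array of slide 3 row 1, and 0 and 1 without the column 4 array beside it.

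The slide dependence was tested directly as an interaction of column with slide. Over all genes 0 (0%) passed adjustment in limma, with 732 genes at an unadjusted p below 0.05 whose column difference was the more positive on slide 3 and 348 where it was the more positive on slide 2, and the smallest adjusted p was 0.675. Of the 28 NF-kappaB genes 26 had an unadjusted interaction p below 0.05, as did 18 of 24 interferon genes and 10 of 36 activity-regulated genes, against 4.57% of all genes. Ifi203, an interferon-inducible gene, had the smallest interaction p (0.000128), with a column difference of 2.77 on slide 3 and -0.14 on slide 2. It was followed by Dse, which modifies dermatan sulphate (2.27 and 0.01), and Malt1, a protease of NF-kappaB signalling (2.16 and -0.01). Within slide 3 alone, where only 1 residual degree of freedom was left and the spread rests on the estimate pooled over genes, 1163 genes (4.93%) were higher and 426 (1.8%) lower in column 4 at an adjusted p below 0.05. These included 27 of 28 NF-kappaB genes, 23 of 36 activity-regulated genes and 18 of 24 interferon genes, all of them higher. Within slide 2 alone the same fit called 0 genes, with 468 higher and 739 lower at an unadjusted p below 0.05. By the labels of the scanner files both columns of slide 3 are Klotho samples, and by the value table they are Klotho and control.

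**Figure D3:**
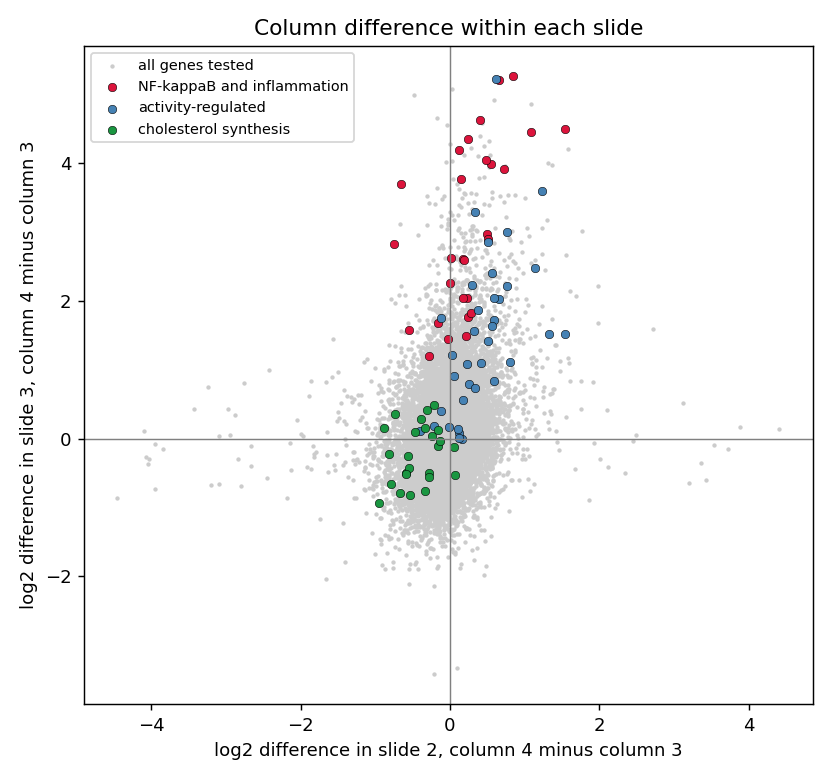
Column difference (log2, column 4 minus column 3) of each tested gene on slide 3 (vertical axis) against slide 2 (horizontal axis), each the mean of 2 pairs. NF-kappaB genes (red) lie high on the slide 3 axis, activity-regulated genes (blue) lie up and right of 0 on both slides in most cases, and cholesterol synthesis genes (green) lie mostly left of 0.

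Activity-regulated genes had positive median differences in 3 of the 4 pairs, on both slides. The median difference of the 36 tested members (of 39) was 0.95; 34 were positive, 22 had an unadjusted p below 0.05, against 3.93% of all genes on that side, and none passed adjustment. In the pairs their medians were -0.03, 0.78, 1.31 and 1.51, so that slide 2 row 1 was the pair without a difference. The count of 22 was 14 without the dim column 3 array of slide 3 row 1, 11 without the column 4 array beside it, and between 15 and 26 without any other array. Without slide and row as terms it was 5. Arc, a synaptic immediate early gene, had levels of -3.21, -0.80, -2.19 and -1.38 in column 4, against -3.94, -3.15, -3.29 and -3.31 in column 3. All pairs were higher in column 4, and only the slide 2 row 1 value of column 4 reached into the range of column 3. The difference was 1.52 (SE 0.35), with 1.54 on slide 2 and 1.51 on slide 3. Klf4, a zinc finger transcription factor, had levels of -0.08, 0.63, 1.48 and 1.26 in column 4, against -0.34, -0.13, 0.01 and -0.09 in column 3, a difference of 0.96 (SE 0.25). The small Maf factor Maff, whose promoter holds the cyclic AMP element, differed by 1.15 (SE 0.30) and the pseudokinase gene Trib1 by 1.10 (SE 0.30). The members ranged from -0.15 for Nr4a2 to 2.92 for Ptgs2, the gene of cyclooxygenase 2 and also a target of NF-kappaB.

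Genes that report ERK signalling downstream of FGF receptors were tested because FGF receptors are the known partners of Klotho. The median of 17 tested genes was 0.27, with 13 positive and 5 at an unadjusted p below 0.05, all higher in column 4, against 3.93% of all genes on that side. Phlda1 had levels of 2.30, 1.78, 4.58 and 3.61 in column 4, against 2.17, 0.67, 2.65 and 0.99 in column 3, a difference of 1.45 (SE 0.37). Myc had levels of 0.58, 0.15, 2.33 and 1.38 in column 4, against 0.35, -0.33, 0.56 and 0.09 in column 3, a difference of 0.94 (SE 0.27). Both growth-related genes were higher in column 4 in every pair and more so on slide 3. Spry4 (1.08, SE 0.32) and Spred3 (0.72, SE 0.27), inhibitors of the ERK pathway, followed. The count of 5 was 3 without the column 4 array of slide 3 row 2 or either column 3 array of slide 3, and 0 without slide and row as terms. The median was 0.10 without the column 3 and 0.18 without the column 4 array of slide 3 row 2. The receptor genes Fgfr1, Fgfr2, Fgfr3 and Fgfr4 differed by -0.16 (SE 0.17), -0.14 (SE 0.15), -0.39 (SE 0.20) and 0.19 (SE 0.35). Fgf1 was at -0.63 (SE 0.21) and the decoy receptor Fgfrl1 at -0.39 (SE 0.16), while Kl and Klb, the klotho genes themselves, were not among the genes that passed the background filter. Fgf1 and Fgfrl1 were the 2 of 11 tested genes of the FGF receptor list that were lower at an unadjusted p below 0.05, against 5.03% of all genes. That count was 0 with median centring. It was also 0 without the column 4 array of slide 2 row 2 or either column 3 array of slide 3.

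Genes of cholesterol synthesis had mostly negative differences, with the widest median on slide 2 row 2. The median of 25 genes was -0.36, 23 were negative, none passed adjustment and 7 had an unadjusted p below 0.05, against 5.03% of all genes on that side. The pair medians were -0.01, -0.81, -0.24 and -0.19. Sqle, squalene epoxidase, had levels of 4.99, 4.59, 4.99 and 4.89 in column 4, against 5.13, 5.53, 5.77 and 5.73 in column 3. The groups did not overlap, and the difference was -0.68 (SE 0.18, adjusted p = 0.553). Dhcr7, a reductase of the late pathway, was at -0.73 (SE 0.24) and Mvk, mevalonate kinase, at -0.55 (SE 0.20). The count of 7 was 2 without either row 2 array of column 4, 3 without the column 3 array of slide 2 row 2 and 4 without that of slide 3 row 2. It was 3 without slide and row as terms and 4 with median centring. The median was -0.20 without the column 4 array of slide 2 row 2.

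Fatty acid synthesis genes had a median of -0.41 over 17 members, 16 of them negative and 6 at an unadjusted p below 0.05, against 5.03% of all genes on that side. The desaturase gene Scd2 had levels of 7.18, 6.68, 6.82 and 6.67 in column 4, against 7.22, 7.70, 7.53 and 7.78 in column 3, a difference of -0.72 (SE 0.21), and its groups did not overlap. The elongase gene Elovl5 (-0.66, SE 0.19) and the desaturase genes Fads1 (-0.70, SE 0.24) and Fads2 (-0.63, SE 0.20) were lower in column 4 in every pair. The count of 6 was 3 without the column 4 array of slide 2 row 2, that of slide 3 row 1, or the column 3 array of slide 3 row 2. The median was -0.21 without the column 4 array of slide 2 row 2.

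The genes with which astrocytes handle glutamate, potassium and coupling had negative differences in 15 of 16 cases, against 57.9% of all genes. Their median was -0.23, and 4 were lower at an unadjusted p below 0.05, against 5.03% of all genes. Slc38a3, a glutamine transporter, had levels of 3.23, 3.53, 2.66 and 2.93 in column 4, against 3.29, 4.95, 4.02 and 4.73 in column 3, a difference of -1.16 (SE 0.29). Kcnj10, the inward rectifier channel that takes up potassium, had levels of 6.41, 5.82, 6.24 and 5.96 in column 4, against 6.56, 7.00, 7.00 and 7.12 in column 3, a difference of -0.81 (SE 0.21). The Kcnj10 groups did not overlap, although the pair of slide 2 row 1 differed by only -0.14. Gja1, the main astrocytic gap junction gene (-0.66, SE 0.21), was also below that threshold. Of the astrocyte markers 3 were lower at that threshold, and 1 was without the dim column 3 array of slide 3 row 1. All 18 astrocyte markers were above background on all 8 arrays; 16 were lower in column 4, with a median of -0.23, and their summed log2 level ranged from 9.31 to 9.78 in column 4 and from 9.44 to 10.1 in column 3 (exact permutation p = 0.286), lower in column 4 in 4 of 4 pairs.

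**Figure D4:**
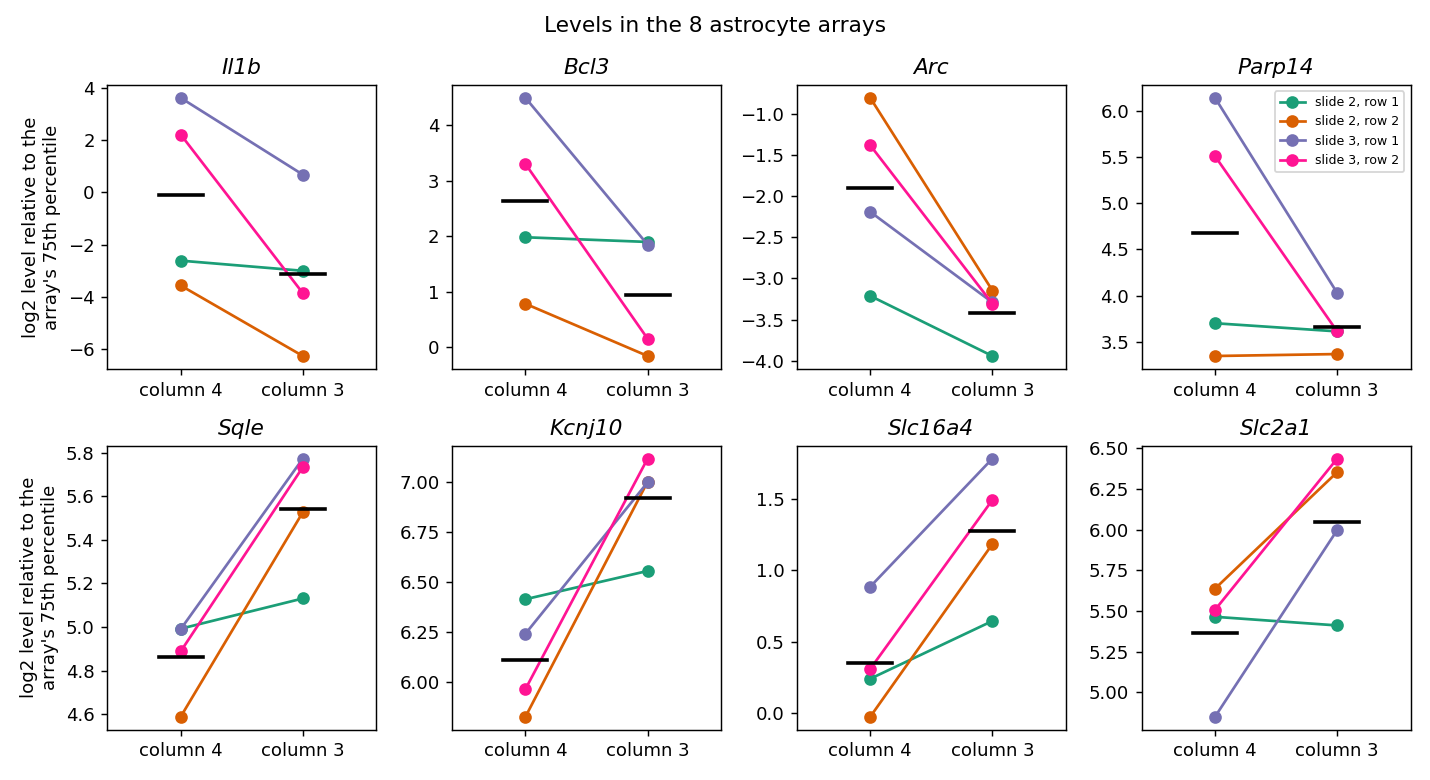
Levels of 8 genes (log2 relative to the 75th percentile of the array) in the 8 astrocyte arrays, column 4 left of column 3, with a coloured line for each position pair and a black bar for the mean of 4 arrays. Il1b, Bcl3 and Arc lie higher in column 4, with little slope in slide 2 row 1 for Bcl3. Parp14 lies higher in column 4 on slide 3 and has little slope in either pair of slide 2. Sqle, Kcnj10, Slc16a4 and Slc2a1 lie lower in column 4 in all pairs except slide 2 row 1 for Slc2a1.

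The title of the series concerns aerobic glycolysis, in which cells turn glucose into lactate although oxygen is at hand, so the genes of that route were read one group at a time. Transporters of glucose and lactate had a median of -0.33 over 14 tested genes, with 6 lower and 1 higher at an unadjusted p below 0.05, against 5.03% and 3.93% of all genes. Slc2a1, the glucose transporter GLUT1, had levels of 5.46, 5.64, 4.85 and 5.51 in column 4, against 5.41, 6.35, 6.00 and 6.44 in column 3, a difference of -0.68 (SE 0.21). Slc16a4, a monocarboxylate transporter family member, had levels of 0.24, -0.03, 0.88 and 0.31 in column 4, against 0.64, 1.18, 1.78 and 1.49 in column 3, a difference of -0.92 (SE 0.21). Slc16a4 was lower in column 4 in every pair, and Slc2a1 in all except slide 2 row 1. Slc2a6, a lysosomal member of the glucose transporter family, went the other way, with levels of 3.08, 2.25, 5.40 and 4.80 in column 4, against 2.71, 1.84, 3.65 and 1.99 in column 3, a difference of 1.34 (SE 0.40). Slc2a10 was at -0.69 (SE 0.20), with groups that did not overlap. The count of 6 was 2 without the dim column 3 array of slide 3 row 1, and 3 without the column 4 array of slide 3 row 2 or either row 2 array of column 3, and it was 3 with median centring.

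Glycolytic enzymes had a median of -0.11 over 24 genes, with 8 positive, 16 negative and 1 at an unadjusted p below 0.05 on the higher side, a share near the 3.93% of all genes. The count was 0 without any single array of slide 3, and the median was 0.04 without the column 4 array of slide 3 row 1. That gene was Hk2, the inducible hexokinase, with levels of 0.97, 0.45, 1.76 and 2.16 in column 4, against 0.82, 0.10, 0.06 and 0.39 in column 3. Hk2 was higher in column 4 in every pair, by 0.25 on slide 2 and 1.73 on slide 3, and the difference in the fit was 0.99 (SE 0.35). Eno2 (0.69, SE 0.32), Pdk4 (-0.30, SE 0.17) and Pfkm (-0.30, SE 0.17) had the next smallest p among these genes. Respiratory chain genes had a median of -0.11, 37 of 42 negative and 0 with an unadjusted p below 0.05, and their pair medians were 0.01, 0.06, -0.55 and -0.02, so the shift lay in the pair with the dim array. Ribosomal protein genes showed the same layout, with pair medians of -0.01, 0.13, -0.44 and 0.15 and a median of -0.06 over 39 genes. The pentose phosphate (-0.06), glycogen (-0.10) and tricarboxylic acid and fatty acid oxidation (-0.10) lists had 0 genes below that threshold in either direction. Without the column 4 array of slide 3 row 1, which is not the dim one, the medians were 0.03 for respiratory chain, 0.10 for ribosomal protein, 0.09 for pentose phosphate and 0.03 for tricarboxylic acid genes, all above 0. Without the dim column 3 array beside it, the medians of these lists in the same order were -0.07, 0.004, 0.005 and -0.05.

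The medians of the remaining lists ran from -0.19 for FoxO and peroxiredoxin genes to 0.14 for complement genes. With single arrays left out, that of the FoxO list lay between -0.30 and -0.024 (without the column 4 array of slide 3 row 1), and that of the complement list between -0.0052 (without the column 3 array of slide 2 row 2) and 0.30 (without the column 4 array of slide 3 row 1). The antioxidant list had a median of -0.16, with 14 of 18 genes negative and the lowest at -1.50. At an unadjusted p below 0.05, 0 were higher and 2 lower, against 3.93% and 5.03% of all genes. The lower count ran from 0 to 4 with single arrays left out. Against that lean, Slc7a11, the cystine-glutamate antiporter and a target of NRF2 and ATF4, was the highest member at 1.88 (SE 0.84). Its column difference was 0.19 on slide 2 and 3.57 on slide 3. Cfb, complement factor B, also an NF-kappaB target, differed by 1.98 (SE 0.89), with -0.05 on slide 2 and 4.01 on slide 3. In the hypoxia list Bhlhe40 was higher (0.95, SE 0.26) and P4ha1 lower (-0.65, SE 0.22) in column 4, and the list median was 0.00.

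Markers of other cells differed from list to list. Neuron markers had a median of 0.00 over 13 tested genes, and Nefl, Slc17a7, Neurod6 and Sst were above background on no array. Endothelial markers had a median of -0.08, and Cldn5, Tek, Tie1 and Emcn were above background on no array. The summed endothelial level was lower in column 4 in 4 of 4 pairs, although the groups overlapped (exact permutation p = 0.171). The oligodendrocyte lineage list had a median of -0.33 (-0.20 without the dim column 3 array of slide 3 row 1), with Gpr17, a receptor of committed precursors, at levels of -0.32, 0.06, -5.80 and -2.94 in column 4, against -0.20, 0.37, -2.02 and 0.13 in column 3 and a difference of -1.82 (SE 0.72). Gpr17 was nearly equal between the columns on slide 2 and lower in column 4 on slide 3. All 12 ependymal and choroid plexus markers were lower in column 4, with a median of -0.45 and pair medians of 0.06, -0.14, -0.68 and -0.85; the median was -0.27 without either array of slide 3 row 2. Kcnj13, a potassium channel of choroid plexus epithelium, had levels of 0.88, 0.47, 0.15 and 0.34 in column 4, against 1.14, 1.27, 1.58 and 1.32 in column 3, with no overlap and a difference of -0.87 (SE 0.21). The summed level of these markers ranged from 6.65 to 7.72 in column 4 and from 7.04 to 8.01 in column 3 (exact permutation p = 0.314). The part of other cell types in the list differences was not tested.

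Genes of the sex chromosomes, chosen after the data were seen, differed within pairs. Xist, the RNA of the inactive X chromosome, had levels of -0.47, 1.27, 0.72 and 0.83 in column 4, against -0.27, 2.18, -0.35 and 1.43 in column 3. The Y-linked gene Eif2s3y had levels of 1.81, 3.18, 2.57 and 2.92 in column 4, against 1.82, 2.09, 2.01 and 2.08 in column 3. Xist and Eif2s3y were nearly equal on slide 2 row 1 and differed between the neighbours of the other 3 pairs. The Y-linked gene Ddx3y had the same layout, but Uty, also Y-linked, did not. Uty was lower in column 4 on slide 2 row 1 (-4.261 against -3.857) and slide 3 row 1 (-3.76 against -3.275). It was higher in column 4 in the row 2 pairs, with column means of -3.98 and -3.96. Kdm5d was above background on 2 arrays of column 4 and 0 of column 3. The part of these genes in the column difference was not tested.

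The same slide columns were compared in the neuron arrays of slide 1, where each column held 1 array of each treatment. There 0 of 24703 genes (0%) passed adjustment in limma, with 506 higher and 117 lower in column 4 at an unadjusted p below 0.05. The medians of the lists in neurons lay between -0.10 and 0.11, with -0.04 for the NF-kappaB and -0.02 for the activity-regulated genes. Nudt18 (0.66, SE 0.10), Olfr566 (0.77, SE 0.12) and Gucy2e (-0.75, SE 0.14) had the smallest p. The column difference in astrocytes minus that in neurons was 0 genes past adjustment (0%), with 294 and 338 genes at an unadjusted p below 0.05 in the positive and negative direction. The interaction of column with row within astrocytes likewise gave 0 genes (0%), with 143 and 121 before adjustment. Fbln2, Lrrc15 and Tnfrsf22 had the smallest p there; Fbln2, a matrix gene, was higher in column 4 by 1.97 and 1.67 in the row 2 pairs and differed by -0.12 and -0.34 in the row 1 pairs.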

How the data were processed

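The authors scanned arrays of Agilent design 028005 (build NCBI37) and ran Feature Extraction 12.0.3.1 under protocol GE1_1200_Jun14, per the file headers. The deposited processed signal is an intensity on a linear scale, background-subtracted and not normalized between arrays, beside flags of 0 or 1. The deposited value table holds a score per probe, which matched the z-score of log2 intensity of 1 scanner array per column to within 0.00502. Values columns left unused numbered 0. Each array held 62976 spots, of which 3671 were controls; outlier-flagged spots were dropped, and 55681 probes were averaged over their spots and centred on the 75th percentile. Probes were named by RefSeq accession (50.9% named, assembly GRCm38.p6), and the brightest probe stood for a gene. A gene was tested if at least 0.5 of its spots were well above background on all 4 arrays of either column. The column difference was estimated by limma 3.58.1 under R 4.3.3 (lmFit, eBayes; slide and row as terms, 4 residual degrees of freedom; Benjamini-Hochberg, threshold 0.05), after a test on simulated data. Python 3.11.15, numpy 2.4.6, pandas 2.3.3 and scipy 1.17.1 did the rest. Precision is limited by the number of arrays.

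Arrays were grouped by slide column, and the members, lists and alternatives were chosen with earlier results of these data known. Named genes are the 10 with a symbol and the smallest p per direction, the 3 widest bounds, 4 members per list with the smallest p, the FGF receptors, markers, and the 3 with the smallest p per interaction or neuron fit. Members named for a motif, for an extreme value or for their sign (Il6, Cxcl1, Cxcl2, Nfkbia, Nr4a2, Ptgs2, Btg2, Dusp1) were chosen after their values were seen. Some genes that the rule names are not reported here. Neighbouring arrays of a pair deviated together (r of 0.84, 0.79, 0.53 and 0.46 in the 4 pairs), and the replicate numbers of the value table did not pair the arrays. Alternatives were the normalization, background correction with normexp (offset 50), background filter, terms, blocks, probe rule and single arrays left out. The files hold no mean signal column, so normexp used the median signal. Spike-in signals were not used, because the files record no spike-in fit.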

Additional observations from a re-analysis of the deposited data

Results flagged for a closer look

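Of 68 groups of 4 values checked for a value far from the others, 2 held one, and chance gives about 1 in 20. The 75th percentile of log2 signal in column 3 was 9.31 on slide 3 row 1, against 10.2 to 10.3 on the other arrays of that column, a gap of 0.883 of the range. Lif in column 3 had a level of -1.48 on the same array, against -3.66 to -3.32 on the others, a gap of 0.845 of the range.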

How the results depend on the processing

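The count of genes past adjustment was 0 with each of the following: no slide or row term, all 16 arrays in 1 fit, normexp, median centring, quantile normalization, no background filter, a stricter one, the value table, the mean over probes, a robust trended prior, and each array left out (0 to 0). The smallest adjusted p over the arrays left out ran from 0.085 to 1.00, and with all 16 arrays it was 0.062. With the replicate block of the value table's numbers the count was also 0, with 297 higher and 115 lower at an unadjusted p below 0.05, and with the position pair as a block 0, with 1406 and 1799. Fits chosen after seeing the data changed the count where 1 residual degree of freedom was left: slide 3 alone gave 1589, row 1 alone 198 (180 higher, 18 lower), and slide 2 alone, row 2 alone and the 6 arrays without slide 2 row 1 gave 0. The cause was not tested. The median over all genes was -0.05 as reported, -0.05 with median centring, -0.03 with quantile normalization and -0.07 with normexp. Among the named genes, sign changes were found for Tnfrsf22 with normexp (-0.059, against 0.20 as reported) and, when single arrays were left out, for Fgfr4 (-0.11 to 0.55, against 0.19 as reported), Nr4a2 (-0.33 to 0.11, against -0.15), Tnfrsf22 (-0.080 to 0.48) and Xist (-0.61 to 0.17, against -0.16). The limits are 4 residual degrees of freedom, 1 dim array, genes that are near background in column 3, an assignment of treatment that the files do not settle, and sources of the cultures that the labels do not give.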

Other observations

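By the value table, the sample codes of neighbouring arrays run on from each other: HGK_D lies beside HGC_C, HGK_H beside HGC_G and HGK_L beside HGC_K, while HGK_8 lies beside HGC_O. The pair D and C is the one on slide 2 row 1, whose arrays were the most alike of the 4 pairs (r = 0.997 across genes, against 0.985, 0.973 and 0.979 in the other pairs). Other gene groups had small median differences: endoplasmic reticulum stress and ATF4 genes had a median difference of -0.15, heat shock genes -0.06, lysosome and autophagy genes -0.09 and cell cycle genes 0.06.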
